A study of Homo sapiens with 4 samples.

Results

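The genes described here code for 35 eukaryotic translation initiation factors, chosen by symbol, from the factors eIF1 to eIF6, among the 51714 gene identifiers that were counted. All 35 had enough reads to be tested. RNA came from Raji cells, a long-established Epstein-Barr virus positive line of Burkitt lymphoma B cells. Both groups were polyclonal lines that received, by electroporation, the vector LS*mock with RPB1, the catalytic subunit of RNA polymerase II, carrying an HA tag and resistance to α-amanitin. In the WT group (2 libraries) this subunit was wild-type, and in the R1810A group (2 libraries) alanine replaced an arginine of its C-terminal domain that can be methylated. All cells were selected with G418 and then for 10 days with α-amanitin, which blocks the endogenous polymerase, and ribosomal RNA was removed from total RNA before sequencing. Untransfected Raji cells are not part of the comparison, so both groups share the vector, the drug and a replaced subunit.

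Initiation factors bring the initiator tRNA, the small ribosomal subunit and the mRNA together. The eIF2 complex carries the initiator tRNA with GTP, and eIF2B recharges eIF2 with GTP. The eIF3 complex sits on the small subunit and bridges to eIF4G, the scaffold that joins the cap-binding protein eIF4E to the RNA helicase eIF4A. In Burkitt lymphoma, high MYC activity is known to drive ribosome production and protein synthesis.

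Summed gene counts ran from 2081636 to 2991959 per library, and the 35 genes took 0.778% to 0.798% of them. All 8 B cell markers had reads (14582 to 18069 per library together). T cell markers had 0 to 2 reads per library, erythroid markers had none, epithelial or fibroblast markers had 3 to 13, and the 3 myeloid markers summed to 330 to 517, nearly all of it CSF1R. Libraries of a group differed by more than the sampling noise of their counts. The labels do not name separate cultures for the libraries, so p-values measure only how these libraries vary, and that may be technical. In bulk RNA, fewer cells of a kind and less RNA per cell cannot be told apart. Levels are given as reads, as CPM (counts scaled to library size, with TMM correcting for library composition) or, between genes, as the authors' RPKM (reads scaled to gene length and total reads).

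No initiation factor gene passed the test in R1810A against WT. The groups are different transfected and selected lines, so the arginine change and other differences between the lines cannot be told apart. With edgeR's quasi-likelihood test at a Benjamini-Hochberg adjusted p of 0.05, 0 of 35 were called in either direction, against 0.347% of 10674 genes called higher and 0.00937% called lower. DESeq2 and limma-voom also called none of the 35. Other settings did call members higher. With no filter on low counts (0.361% of genes called higher) EIF3A and EIF4A2 were called, and with robust edgeR (0.375%) EIF3A. With the replicate number as a block, which called 73 genes higher in all, EIF3A and EIF4A2 were called. At an unadjusted p under 0.05, EIF3A, EIF4A2 and EIF5B were higher and EIF4B was lower, 3 and 1 of 35, where 4.94% of all genes were higher and 3.06% lower. EIF3A and EIF4A2 stood apart in size, with log2 fold changes of 0.66 each, and the other 33 lay between -0.55 and 0.39. The median log2 fold change was -0.06 over the 35 genes and -0.0046 over all genes tested, with 12 of the 35 above 0 and 23 below. With the deposited total reads as library size the median of all genes moved to -0.13, and 8 of the 34 members then tested lay above 0, with a median of -0.17. In TMM-scaled CPM the R1810A pair lay wholly above the WT pair in 8 of the 35 genes and wholly below it in 12, against 19.8% and 19.5% of all genes. These counts depend on the scaling. In the authors' RPKM, EIF1AX, EIF3A and EIF4A2 of the 8 stayed above, while EIF1, EIF3B, EIF3F, EIF3G and EIF5B overlapped. The 12 stayed below in RPKM, and others such as EIF2S1 and EIF3M joined them. The share of all genes in RPKM was not counted.

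**Figure D1:**
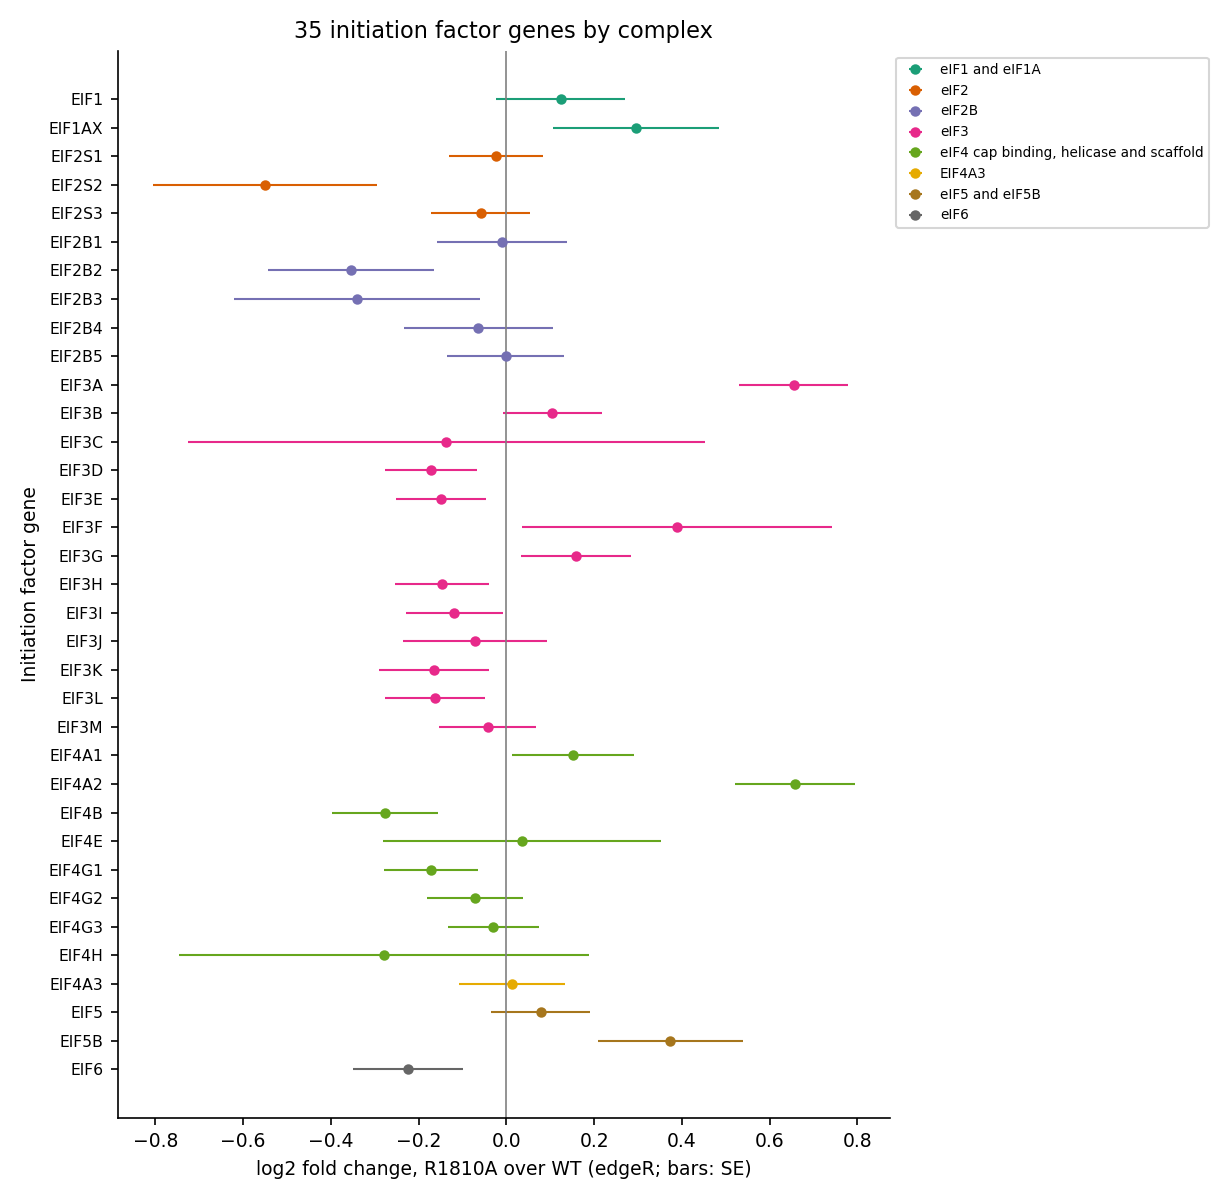
The horizontal axis gives the log2 fold change of R1810A over WT from edgeR, with the SE as a bar, for each of the 35 genes, coloured by complex. EIF3A and EIF4A2 lie at 0.66 and all others between -0.55 and 0.39.

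EIF3A (ENSG00000107581) codes for the largest eIF3 subunit, which with eIF3c forms the scaffold of the complex. The WT libraries held 281 and 337 reads of it, the R1810A libraries 358 and 412, which is 123 and 112 CPM against 172 and 198 CPM. No R1810A library reached as low as a WT library, although each held fewer summed counts than either WT library. Means of 118 ± 7.74 CPM (WT) and 185 ± 18.8 CPM (R1810A; SD, n = 2) gave a log2 fold change of 0.66 (SE 0.12, edgeR adjusted p = 0.0609). The adjusted p was 0.0956 with DESeq2 and 0.0786 with limma-voom. With the deposited total reads the edgeR adjusted p was 0.106 (log2 fold change 0.53), and with RLE size factors 0.0560. With no filter on low counts the edgeR adjusted p was 0.0159 (0.361% of genes called higher), and with robust edgeR it was 0.0455 (0.375% called higher). With the replicate number as a block it was 0.0226. With a library left out it ranged from 0.0257 without R1810A replicate 1 to 0.410 without R1810A replicate 2, with log2 fold changes of 0.75 and 0.54. EIF3A shares 63 exon bases with NANOS1 on the opposite strand, and NANOS1 had 3, 8, 7 and 8 reads.

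The other 12 eIF3 subunits did not share that size of difference. Of these, 9 had a log2 fold change below 0 and 3 above, the median was -0.13, and none had an unadjusted p under 0.05. In CPM the R1810A pair lay wholly below WT in 6 of the 12 and wholly above in 3, read against the same background. With the deposited total reads, 10 were below 0 and 2 above. The 6 were EIF3D, EIF3E, EIF3H, EIF3I, EIF3K and EIF3L. EIF3D, a subunit that can itself bind the cap of some mRNAs, had the smallest p of the 12, with 505 and 487 CPM in WT against 422.5 and 458 in R1810A (log2 fold change -0.17, SE 0.11, edgeR adjusted p = 0.701).

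EIF3E stood at 438 and 453 CPM in WT against 411 and 393 in R1810A (log2 fold change -0.15). EIF3L stood at 231 and 254 CPM against 227 and 206 CPM (-0.16). Both code for subunits of the eIF3 core that surrounds the scaffold. EIF3H had 201 and 197 CPM in WT against 177 and 182 in R1810A. EIF3I had 219 and 202 CPM against 191 and 196 CPM. EIF3K had 165 and 158 CPM against 157 and 131 CPM. None of the 6 passed the test, with edgeR adjusted p between 0.701 and 0.808, although the groups did not overlap. In EIF3H the means were 199 ± 2.55 CPM (WT) and 179.65 ± 3.12 CPM (R1810A). An SD from 2 libraries is a poor measure of spread. The edgeR fit gave EIF3H a log2 fold change of -0.15 with an SE of 0.11 (edgeR adjusted p = 0.760). In EIF3K the R1810A libraries alone had an SD of 18.7 CPM around a mean of 144 CPM.

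EIF3B, EIF3F and EIF3G were the 3 whose R1810A libraries both lay above WT in CPM. In the authors' RPKM all 3 overlapped between groups. EIF3B had an RPKM of 47.4 and 47.5 in WT against 50.8 and 43.0 in R1810A. For EIF3F these were 2.51 and 3.36 against 3.34 and 3.83, and for EIF3G 64.1 and 54.8 against 60.4 and 61.2. EIF3B, which with eIF3g and eIF3i forms a module at the mRNA entry side, had 998 and 1001 CPM in WT against 1148 and 1002 in R1810A (log2 fold change 0.11, SE 0.11). R1810A replicate 2 was therefore at the WT level, and the sign turned with the deposited total reads as library size (-0.02). EIF3G had 138 and 118 CPM in WT against 139 and 145 in R1810A (0.16, SE 0.12). EIF3F had only 13 and 23 WT reads against 17 and 20 in R1810A (0.39, SE 0.35).

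EIF3J, EIF3M and EIF3C overlapped between groups. EIF3J, a loosely bound subunit, had 72.3 and 56.3 CPM in WT against 57.5 and 64.0 in R1810A. EIF3M had 390 and 344 CPM against 349 and 363 CPM. EIF3C, the partner of EIF3A in the scaffold, had 5 and 22 WT reads against 6 and 13 in R1810A, too few to compare (log2 fold change -0.14, SE 0.59).

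**Figure D2:**
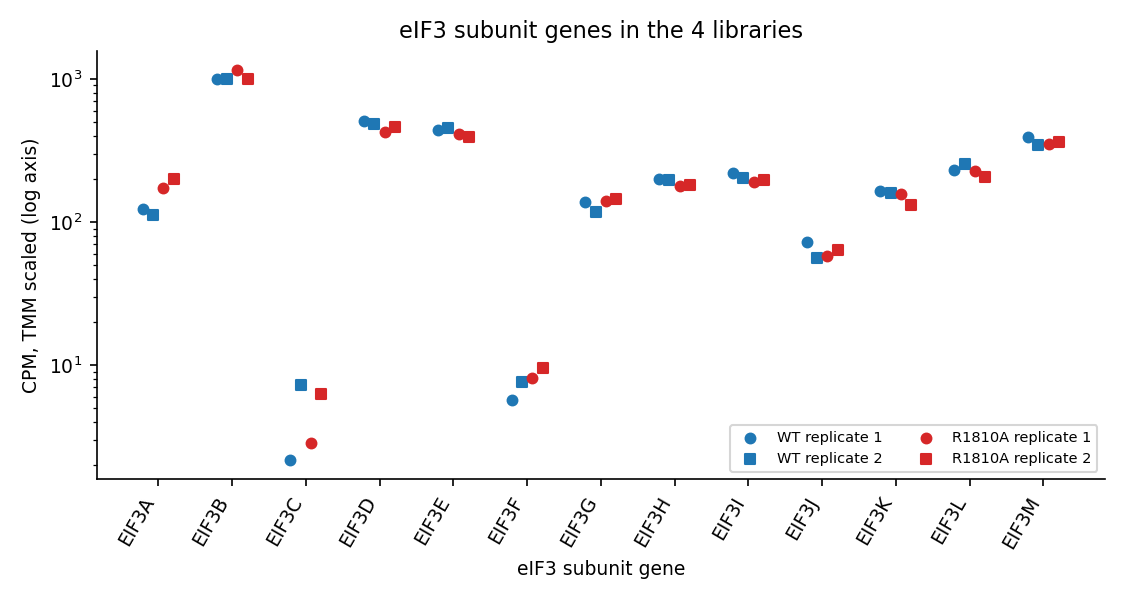
Each point is the TMM-scaled CPM, on a log axis, of an eIF3 subunit gene in one library (blue WT, red R1810A; circles replicate 1, squares replicate 2). In EIF3A the red points (172 and 198 CPM) lie above the blue ones (123 and 112 CPM), while EIF3C and EIF3F lie under 10 CPM in every library.

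Measured within each library, which needs no scaling between libraries, EIF3A reads were 3.66% and 3.41% of the summed reads of the other 12 subunits in WT and 5.21% and 6.28% in R1810A. The log2 ratio was 0.70 higher in R1810A, a 1.62-fold difference with no overlap (two-sided exact permutation p = 0.33, the smallest that 2 against 2 libraries allow). The difference was 0.74 with RPKM in place of counts and 0.78 against the median subunit. Against single subunits, the ratio of EIF3A was higher in both R1810A libraries for 10 of the 12. It overlapped for EIF3C and EIF3F, the subunits with the fewest reads. All 12 ratios share the same EIF3A counts, so they repeat 1 difference and do not count as separate results. Summed over its 13 genes, eIF3 stood at 3443 ± 63.2 (WT) and 3409 ± 77.6 CPM (R1810A), which overlapped.

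**Figure D3:**
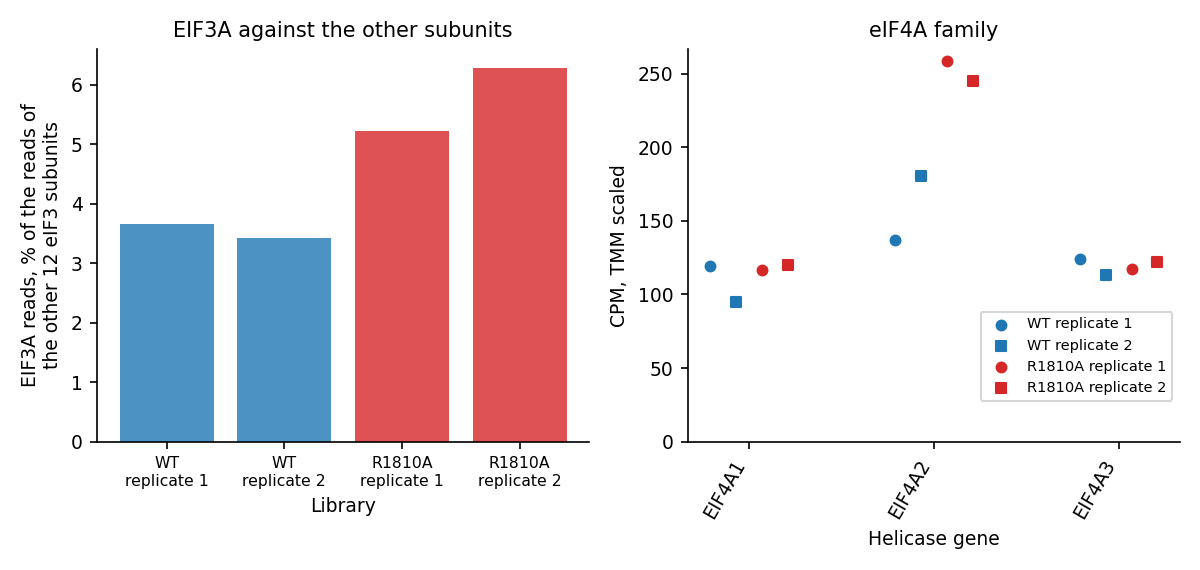
Left, bars give EIF3A reads as a percentage of the reads of the other 12 eIF3 subunits in each library; right, points give the TMM-scaled CPM of the eIF4A helicase genes by library. EIF3A stood at 3.41% to 3.66% in WT and 5.21% to 6.28% in R1810A, and of the helicase genes EIF4A2 alone shows both red points above both blue ones.

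EIF4A2 (ENSG00000156976), which codes for an RNA helicase closely related to EIF4A1, had 313 and 543 WT reads against 539 and 510 in R1810A. These were 137 and 181 CPM against 258 and 245 CPM, with the WT libraries further apart than the R1810A libraries and no overlap. The means of 159 ± 30.8 and 252 ± 9.28 CPM (SD, n = 2) gave a log2 fold change of 0.66 (SE 0.14, edgeR adjusted p = 0.0867). The edgeR adjusted p was 0.0159 with no filter and 0.156 with the deposited total reads. With a library left out it ranged from 0.0368 without R1810A replicate 2 to 0.139 without R1810A replicate 1, and the log2 fold change ran from 0.48 without WT replicate 1 to 0.88 without WT replicate 2. EIF4A1, the more studied cap-complex helicase, overlapped between groups at 119 and 94.5 CPM in WT against 117 and 120 in R1810A. EIF4A3, a paralog that works in the exon junction complex on spliced mRNA, had 124 and 114 CPM against 117 and 122 CPM.

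Small nucleolar RNA (snoRNA) genes lie within EIF4A1, EIF4A2 and EIF4G2, and a snoRNA is normally cut from the intron of its host. Of the 15 identifiers that carry the snoRNA symbols listed for these hosts, 4 had enough reads to be tested. Of these, 2 were called higher in R1810A, against 0.347% of all genes tested. The R1810A pair lay wholly above the WT pair in the 3 that lie within a host gene, against 19.8% of all genes. SNORA63D, the other gene tested, passed the filter on low counts only through its R1810A libraries. Its place above WT was thus set by the filter and is not counted. The 3 tested that lie within a host gene are printed here, since they include both that were called. Sequences and positions are from GENCODE 29 on GRCh38, not the build of the counts. Capitals mark the ACA near the end of the H/ACA snoRNA SNORA48, a CTGA (the letters of a D box) near the end of SNORD10, and a GATGA (letters of a C box) near the start of SNORD97.
SNORA48, in EIF4A1, chr17:7574713-7574847, plus strand: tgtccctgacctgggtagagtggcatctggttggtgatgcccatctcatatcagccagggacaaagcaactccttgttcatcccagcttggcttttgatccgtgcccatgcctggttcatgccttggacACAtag
SNORD10, in EIF4A1, chr17:7576811-7576952, plus strand: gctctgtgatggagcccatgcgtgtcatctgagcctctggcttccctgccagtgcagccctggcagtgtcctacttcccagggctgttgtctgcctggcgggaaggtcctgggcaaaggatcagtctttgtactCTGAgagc
SNORD97, in EIF4G2, chr11:10801467-10801608, minus strand: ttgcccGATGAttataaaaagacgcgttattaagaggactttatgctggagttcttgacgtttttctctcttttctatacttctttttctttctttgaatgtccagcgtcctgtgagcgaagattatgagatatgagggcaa

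SNORD97 had 11 and 24 WT reads against 102 and 80 in R1810A, while its host EIF4G2 had 2913 and 3466 against 2435 and 2378. SNORD97 reads were thus 0.378% and 0.692% of the host's in WT and 4.19% and 3.36% in R1810A. SNORD97 rose by a log2 fold change of 2.72 (SE 0.28, edgeR adjusted p = 0.0016), whereas EIF4G2, an eIF4G relative without the eIF4E-binding part, stood at -0.07 (SE 0.11). SNORA48 had 206 and 180 WT reads against 397 and 370 in R1810A, which is 75.7% and 63.4% of the EIF4A1 reads in WT and 163% and 149% in R1810A. SNORA48 rose by 1.31 (SE 0.17, edgeR adjusted p = 0.0060) and EIF4A1 stood at 0.15 (SE 0.14). Without WT replicate 2 both snoRNAs lost the call (edgeR adjusted p = 0.0608 for each), in a fit that called 2 genes higher in all. Their log2 fold changes were then 3.16 for SNORD97 and 1.03 for SNORA48. SNORD10, in the same host, had 150 and 183 reads against 227 and 160 (log2 fold change 0.56, SE 0.17, edgeR adjusted p = 0.372), and its share of the host's reads overlapped between groups. SNORA63D, listed with the hosts' snoRNAs but placed by the annotation outside EIF4A2, had 5 and 3 reads against 10 and 14 (1.89, SE 0.57, edgeR adjusted p = 0.352).

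**Figure D4:**
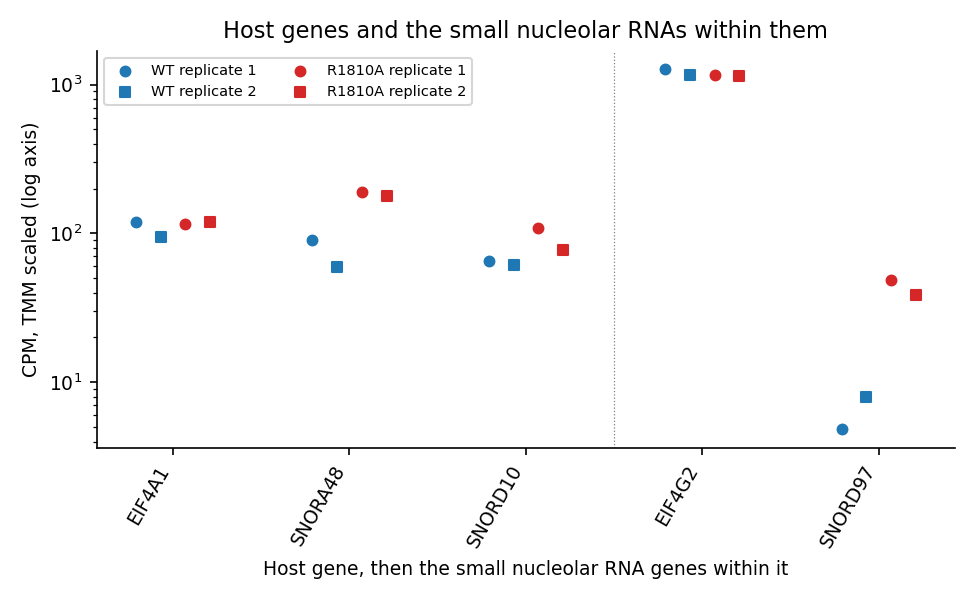
Points give the TMM-scaled CPM, on a log axis, of EIF4A1 and EIF4G2 and of the snoRNA genes within them, by library (blue WT, red R1810A). SNORA48 (log2 fold change 1.31), SNORD10 (0.56) and SNORD97 (2.72) separate by group while EIF4A1 (0.15) and EIF4G2 (-0.07) overlap. SNORD10 did not pass the test.

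The snoRNAs within EIF4A2 were listed differently. SNORD2, SNORA63B, SNORA81 and SNORA63 lie in EIF4A2 and were each listed at 0 reads in all 4 libraries. The deposited length of EIF4A2, 6133 bases, equals the length of all its annotated exons in GENCODE 29, and those exons cover every base of the 4 snoRNAs (69, 123, 178 and 132 bases). Such cover is not particular to EIF4A2. The GENCODE 29 exons of EIF4A1 cover every base of SNORA48 (135 bases) and SNORD10 (142 bases). Those of EIF4G2 cover 122 of the 142 bases of SNORD97. For EIF4A1 the deposited length was 2021 bases against 5316 in GENCODE 29, and for EIF4G2 4044 against 8655. Whether reads of the snoRNAs entered the EIF4A2 count was not tested. SNORA19, in an intron of EIF3A, was also listed at 0 in every library, and lies outside the annotated exons of EIF3A.

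Among the other factors of the cap complex, EIF4B, which stimulates the helicase, had 142 and 161 CPM in WT against 124 and 127 in R1810A (log2 fold change -0.28, SE 0.12, edgeR adjusted p = 0.606). EIF4G1, the main scaffold, had 1089 and 1139.8 CPM against 1010.0 and 969 CPM (-0.17, SE 0.11, edgeR adjusted p = 0.706). In both genes the groups did not overlap. EIF4G3, a second full-length scaffold, had 365 and 354 CPM against 348 and 356.5 CPM. EIF4E, the cap-binding protein, had 28 and 26 WT reads against 21 and 23 in R1810A, and EIF4H, a relative of EIF4B in function, had 17, 12, 9 and 10 reads. Summed, the 8 listed eIF4 genes other than EIF4A3 stood at 3123 ± 36.9 (WT) and 3008 ± 43.9 CPM (R1810A), without overlap (two-sided exact permutation p = 0.33, the smallest possible). They include paralogs and EIF4G2, so the sum is not the level of 1 complex. Its largest parts were EIF4G2 (means 1215 CPM in WT, 1156 in R1810A) and EIF4G1 (1115 and 989 CPM).

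The eIF2 and eIF2B genes, all 8, had log2 fold changes below 0, with none passing the test. EIF2S2, the beta subunit of eIF2, had 57 and 91 WT reads against 31 and 48 in R1810A, or 25.0 and 30.3 CPM against 14.9 and 23.1 CPM (log2 fold change -0.55, SE 0.26, edgeR adjusted p = 0.634). EIF2S1, the alpha subunit that stress kinases phosphorylate, overlapped at 335 and 305 CPM against 309 and 319.9 CPM. EIF2S3, the GTP-binding gamma subunit, had 152 and 159.8 CPM against 149 and 151 CPM. In eIF2B, EIF2B2 stood at 35.9 and 42.3 CPM in WT against 28.8 and 32.7 in R1810A (-0.35, SE 0.19, edgeR adjusted p = 0.661). EIF2B1, EIF2B3, EIF2B4 and EIF2B5 overlapped between groups, with log2 fold changes from -0.34 to -0.0016. The summed eIF2 genes stood at 503 ± 12.1 (WT) and 483 ± 15.3 CPM (R1810A). The summed eIF2B genes stood at 328 ± 17.6 and 312 ± 35.3 CPM and overlapped. Of these 8 genes EIF2B1, EIF2B3, EIF2B4, EIF2B5 and EIF2S1 lay above 0 when 1 or another library was left out.

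The start-codon and subunit-joining factors EIF1, EIF1AX, EIF5 and EIF5B had log2 fold changes above 0. EIF1 and EIF1AX, which keep the scanning complex open, had 60.03 and 53.6 CPM against 60.9 and 62.5 CPM, and 28.04 and 31.96 CPM against 35.01 and 38.97 CPM (log2 fold changes 0.12 and 0.30). EIF5B, the GTPase that joins the ribosomal subunits, had 64.0 and 50.9 CPM in WT against 67.1 and 80.8 in R1810A (0.37, SE 0.17, edgeR adjusted p = 0.614). EIF5, which activates GTP hydrolysis by eIF2, overlapped at 219.97 and 252 CPM against 252 and 247 CPM. EIF6, which keeps the ribosomal subunits apart, had 124 and 111 CPM against 99.3 and 101 CPM (-0.22, SE 0.12, edgeR adjusted p = 0.672). None of these genes passed the test.

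Per length, EIF4G2 and EIF3M had the highest levels (mean RPKM over the 4 libraries 157 and 156), followed by EIF3E (150.5) and EIF3K (93.1). In RPKM EIF4G2 had 176 and 159 in WT and 150 and 142 in R1810A, and EIF3M had 176 and 155 against 147 and 148, so neither can be placed above the other. EIF3A, at 12.9, was in the lower part of the order. The lowest were EIF3F (3.26), EIF4H (0.864), EIF3C (0.802) and EIF4E (0.398). Although the eIF3 subunits form one complex, their mean RPKM thus ran from 0.802 to 156. This order depends on the deposited lengths, which equalled the annotated exon length in GENCODE 29 in 9 of the 35 genes. For EIF3M the deposited length was 1235 bases against 7428 annotated, and for EIF3B 11726 against 8998.

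Some of the lowest levels were in genes that share sequence with others. Each annotated coding sequence was split into all words of 32 bases, and a word counted as unique if no transcript of a gene elsewhere in GENCODE 29 held it on either strand. Of the 35 genes, 15 had 100% unique words, EIF3A among them, and 8 had under 50%. The 8 had a median mean-RPKM of 3.64 (0.398 to 23.5) and the other 27 a median of 29.7 (4.10 to 157). EIF3C had 1.68% unique words, since EIF3CL is a near-identical copy, which was itself listed at 0 reads in every library. EIF1AX had 17.8%, EIF2S2 22.1%, EIF4B 24.9%, EIF4H 35.7%, EIF3F 38.4%, EIF4E 40.7% and EIF2S3 42.7%. How the authors treated reads that match several places is not given in the sources used here, so the levels of these 8 genes are uncertain, and the part of shared sequence in them was not tested. EIF4E also has the longest deposited gene length of the 35, 14085 bases, by which its RPKM is divided.

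**Figure D5:**
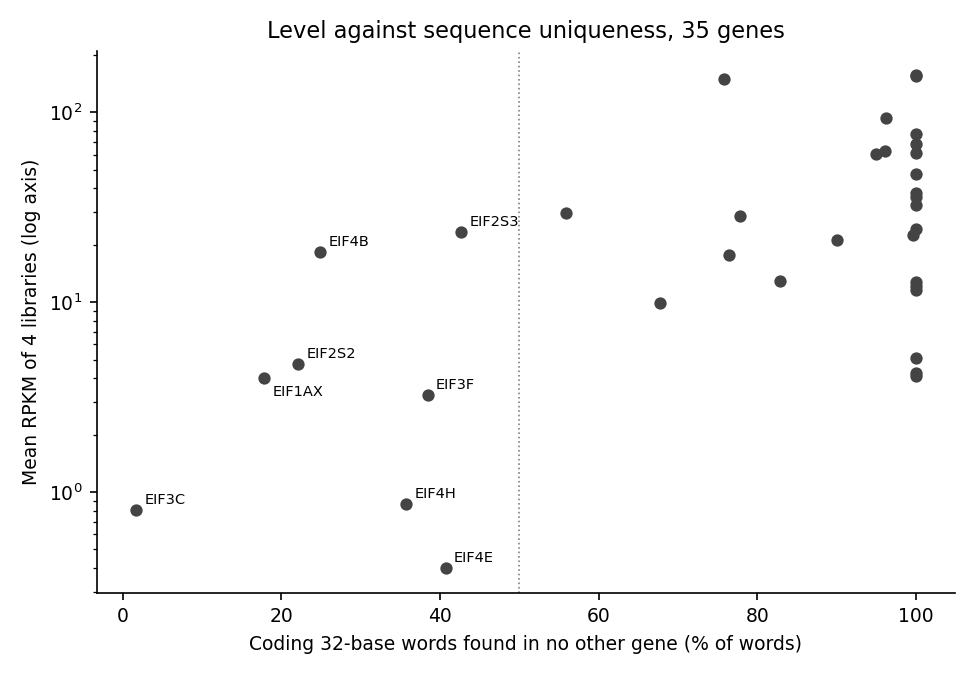
Each point is one of the 35 genes, with the percentage of its coding 32-base words found in no other gene on the horizontal axis and its mean RPKM of the 4 libraries, on a log axis, on the vertical. The 8 named genes left of the dotted line at 50% have a median of 3.64 against 29.7 for the rest.

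EIF2S3 and its intronless copy EIF2S3B show how close such sequences are. Their coding sequences differ at 25 of 1416 bases (98.2% identity), and the first 120 bases are printed from the start codon on, with the 3 differing bases in capitals.
EIF2S3: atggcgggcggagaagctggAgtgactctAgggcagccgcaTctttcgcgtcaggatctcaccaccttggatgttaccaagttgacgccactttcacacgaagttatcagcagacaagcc
EIF2S3B: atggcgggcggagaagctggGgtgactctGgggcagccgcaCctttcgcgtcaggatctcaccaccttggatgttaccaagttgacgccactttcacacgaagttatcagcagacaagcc
A read from the last part of this stretch is the same in both genes. EIF2S3B had 197 and 303 WT reads against 231 and 224 in R1810A, which was 56.8% and 63.1% of the EIF2S3 reads in WT and 74.5% and 71.3% in R1810A.

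Copies of 18 member genes, 52 in all, were among the counted identifiers, 21 of them with no reads and 18 with at least 20 reads over the 4 libraries. EIF3EP1 had the most, with 488 and 607 WT reads against 371 and 398 in R1810A, 43.2% to 48.8% of the EIF3E reads in each library and overlapping between groups. EIF3IP1 had 310 reads in all, EIF5P1 294, EIF1AXP1 248 and EIF3FP3 163. EIF1B, a protein-coding paralog of EIF1 counted here with the copies, had 189, and 100% of its coding words were unique. EIF3FP3 alone exceeded its parent EIF3F, which had 13 to 23 reads per library against 35 to 44 for the copy. EIF4A2P4 had 151 reads, EIF3KP3 141, EIF3KP2 124, EIF4BP3 96 and EIF3JP2 92. The remaining 6 of the 18, EIF3MP1, EIF4A1P6, EIF4EP2, EIF3KP1, EIF4BP7 and EIF3LP2, had between 22 and 49.

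Partners of the initiation factors, a list of 21 genes of which 17 were tested, had no called member and a median log2 fold change of 0.11, with 10 above 0. EIF4E2, a cap-binding relative of EIF4E, had 24.1 and 28.0 CPM in WT against 29.7 and 40.4 in R1810A (0.42, SE 0.22, edgeR adjusted p = 0.654). The nuclear cap-binding genes followed, NCBP2 with 74.1 and 77.9 CPM against 90.6 and 88.5 CPM (0.24), and NCBP1 with 62.7 and 70.6 CPM against 83.9 and 75.1 CPM (0.25). PABPC1, the poly(A)-binding protein that eIF4G contacts, stood at 422 and 415 CPM against 471 and 453 CPM (0.14). EIF4E3 was listed at 0 reads in every library.

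Regulators of initiation, 22 tested of 25 listed, had no called member and a median of 0.06. At an unadjusted p under 0.05, 2 of the 22 were higher and 2 lower, where 4.94% of all genes were higher and 3.06% lower. ATF4, a transcription factor whose translation rises when eIF2 is phosphorylated, had 72.3 and 91.2 CPM in WT against 59.0 and 61.6 in R1810A (log2 fold change -0.45, SE 0.16, edgeR adjusted p = 0.470). EIF2AK1, the heme-regulated eIF2 kinase, had 749.7 and 695 CPM against 565 and 618 CPM (-0.29, SE 0.11, edgeR adjusted p = 0.523). PDCD4, an inhibitor of eIF4A, had 60.5 and 60.6 CPM against 88.2 and 68.3 CPM (0.37, SE 0.16, edgeR adjusted p = 0.594). RPS6KB1, a kinase of ribosomal protein S6, stood at 0.48 (SE 0.21, edgeR adjusted p = 0.603). EIF4EBP1, which binds eIF4E and blocks it, was listed at 0 reads in all 4 libraries, where a count of 0 allows up to 3 reads, although all its coding words were unique. EIF4EBP2, of the same family, had 149.9 and 163 CPM in WT against 134 and 148 in R1810A.

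Elongation and release factors, 13 tested of 15 listed, had no called member and a median of 0.03. EEF1E1, a multisynthetase complex member, had 51.7 and 56.3 CPM in WT against 36.4 and 47.6 in R1810A (-0.36, SE 0.17, edgeR adjusted p = 0.642), and EEFSEC, the selenocysteine factor, had 66.2 and 52.9 CPM against 50.8 and 49.6 CPM (-0.24). EEF2, which moves the ribosome along the mRNA, overlapped between groups at 9008 ± 91.3 (WT) and 9212 ± 629 CPM (R1810A) (SD, n = 2). EEF1A1, which delivers tRNA to the ribosome and is known as one of the most abundant mRNAs, had 293 and 500 WT reads against 286 and 226 in R1810A (-0.27) and a mean RPKM of 12.2, against 1540.2 for EEF2. Its coding words were 8.86% unique and those of EEF2 100% unique.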

How the data were processed

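RNA of Raji cells was measured in 4 libraries, 2 WT and 2 R1810A, grouped by the titles in the labels. The submitters' processing notes name Bowtie and the build hg19. What is not given in the sources used here is its version, the counting program, the annotation, strand use and the handling of reads with several matches. The authors deposited raw read counts per Ensembl gene and, beside them, RPKM values, which matched counts per deposited length and total reads within a relative tolerance of 0.0001. Gene symbols were looked up in a names table and in GENCODE 29 (34838 of 51714 identifiers matched).

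Counts of all genes entered edgeR 4.0.16 (R 4.3.3; TMM scaling after filterByExpr, glmQLFit, glmQLFTest, group as the only term, Benjamini-Hochberg over the 10674 genes kept, threshold 0.05). The SE is the size of the log2 fold change over the root of its F statistic. DESeq2 1.42.0 and limma-voom (limma 3.58.1) were alternatives, with other scalings, no filter, robust edgeR, the replicate block and each library left out. Complex sums and the EIF3A ratio had an exact permutation test. The fit was tested on simulated data. Members and lists were chosen with earlier results of these data known. Values per library are given for the 12 members of smallest p and all eIF3 subunits, for the 3 genes of smallest p in each other list with EIF4EBP1, EEF1A1, EEF2 and PABPC1, and for copies with at least 20 reads. Other genes named, and the word count, the shares of host reads and the ratios between single genes, were added after values were seen.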

Additional observations from a re-analysis of the deposited data

How the results depend on the processing

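Of the 10674 genes tested, 37 were called higher and 1 lower. With no filter these counts were 78 and 7, and 2 initiation factor genes, EIF3A and EIF4A2, were called higher. Robust edgeR called 4 genes lower and 1 initiation factor gene, EIF3A, higher. DESeq2 called 2 lower, limma-voom 24 higher, and the deposited total reads as library size 5 lower. With a library left out, 2 to 82 genes were called higher and 0 to 11 lower, and 0 to 1 initiation factor genes higher. Such a fit leaves 1 library in a group, which is assumed to vary like the other group. No initiation factor gene was called lower in any of the alternatives run.

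With the replicate number as a block, 73 genes were called higher and 4 lower, 2 of them initiation factor genes (EIF3A and EIF4A2, edgeR adjusted p = 0.0226 and 0.0208). Deviations of same-numbered libraries had r = -0.0401 across 10674 genes, so no pairing was seen over all genes together. With 2 libraries per group, this correlation cannot decide whether same-numbered libraries were handled together. Whether the block is the better model was not tested. EIF2B1 turned to 0.0014 under the block.

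With the deposited total reads the log2 fold change turned sign in EIF3B (-0.0154), EIF4E (-0.0851), EIF4A3 (-0.109, its sum -0.110), EIF5 (-0.0433) and EEF2 (-0.0886), where the scaling moved the median of all genes to -0.13. EIF4H missed the filter there and was not tested. With a library left out, values that turned sign ran from -0.0906 to 0.0456 in EIF2S1, -0.17 to 0.19 in EIF2B1, -0.87 to 0.0424 in EIF2B3, -0.17 to 0.0302 in EIF2B4, -0.16 to 0.14 in EIF2B5, -0.79 to 1.04 in EIF3C, -0.25 to 0.11 in EIF3J, -0.13 to 0.0493 in EIF3M, -0.0124 to 0.32 in EIF4A1, -0.21 to 0.29 in EIF4E, -0.14 to 0.0026 in EIF4G2, -0.70 to 0.19 in EIF4H, -0.0543 to 0.0782 in EIF4A3, -0.0147 to 0.18 in EIF5 and -0.0400 to 0.0968 in EEF2. The complex sums ran from -0.192 to 0.0394 in eIF2B, -0.0375 to 0.0089 in eIF3 and -0.0546 to 0.0780 in EIF4A3. The cause was not tested. Depth limits EIF3C, EIF3F, EIF4E and EIF4H, which had 5 to 28 reads per library.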
